A study of Mus musculus with 5 samples.

Results

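Expression levels of cullin and F-box genes in whole left ventricle of the mouse were set against those in cardiomyocytes (CM) isolated from mouse heart. These were 2 of the 5 samples of the series, and all 130 probe sets of the cullin and F-box sheets entered the comparison, with no choice by measured value. The probe sets named 71 genes, taking the first symbol where several stood. They were 8 cullins, 33 Fbxo, 13 Fbxw and 17 Fbxl genes. Both samples came from healthy male C57Bl/6N mice aged 6 months without a transgene or treatment, and each was a pool of 5 mice. The remaining samples held lung fibroblasts and cardiac fibroblasts of non-failing and of failing hearts, the latter from beta1-adrenergic transgenic mice. Each condition had 1 pooled sample, so no difference below has a replicate error or a test, and the number of arrays limits the precision.

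Cullin-RING ligases (CRLs) attach ubiquitin to proteins that are to be degraded or otherwise altered. In each of them a cullin is the scaffold that holds a RING protein at one end and, through an adaptor, a substrate receptor at the other. F-box proteins are the receptors of the Cul1-based SCF ligases and are sorted by the rest of their sequence into Fbxw proteins with WD40 repeats, Fbxl proteins with leucine-rich repeats and Fbxo proteins with other domains. In striated muscle several F-box proteins take part in the breakdown of proteins during atrophy. Whole ventricle holds cardiomyocytes together with fibroblasts, endothelial cells, smooth muscle cells and leukocytes. In such a bulk sample, fewer cells of a type and less RNA per cell cannot be told apart.

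Left ventricle stood apart from CM in the form and range of its values. Levels are given on the log2 scale, on which a difference of 1 is 2-fold, and the study takes from the manufacturer 6.0 as the level of relevant and 6.5 as that of strong expression. The 130 probe sets ran from -3.32 to 11.66 in left ventricle, with quartiles of 1.96 and 7.17, and from -0.75 to 11.52 in CM, with quartiles of 4.71 and 7.93. Their SD was 3.37 in left ventricle and 2.62 in CM. Left ventricle had 34 probe sets below 2, against 13 in CM, while the lowest level in either cardiac fibroblast sample was 4.76. On the linear scale all 130 left ventricle values had at most 1 decimal (after multiplication by 10, within 0.001 of a whole number), which was so for 1 CM value. Left ventricle was the lowest of the 5 samples for 63 probe sets and the highest for 20. None of 29 listed markers of cardiomyocytes and other heart cells was among the named genes (0 of 29), so neither label could be checked against its cell type. Left ventricle also resembled CM mainly for the probe sets with the lowest numbers, as set out with the order of the probe sets at the end. Whether the left ventricle column is intact, with every value at its own probe set and on its original scale, was not tested, and each left ventricle value below carries this limit.

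Of the 130 probe sets, 32 (24.6 percent) reached 6.0 in both samples, 14 in left ventricle alone, 39 (30 percent) in CM alone and 45 (34.6 percent) in neither. The 32 probe sets well read in both stood for 26 genes. Their median difference, left ventricle minus CM, was 0.17, with 18 above 0 and 14 below, and 22 of them lay within 2-fold. The 39 probe sets read in CM alone had a median difference of -5.30, and all 39 were at least 2-fold lower in left ventricle. The 14 read in left ventricle alone had a median difference of 3.95, and 13 were at least 2-fold higher. The excess of lower values in left ventricle thus stood in probe sets that were low there, not in those of at least 6.0 in both samples, although the same levels define these classes. Over all probe sets, 30 (23.1 percent) were at least 2-fold higher and 68 (52.3 percent) at least 2-fold lower in left ventricle, with a median difference of -1.20, and 75.4 percent differed by 2-fold in either direction. Just outside and inside the threshold of 6.0 were a probe set of Fbxo36 at 5.94 and that of Fbxw4 at 6.04 in left ventricle, and one of Fbxo33 at 5.96 and that of Fbxo46 at 6.06 in CM.

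**Figure D1:**
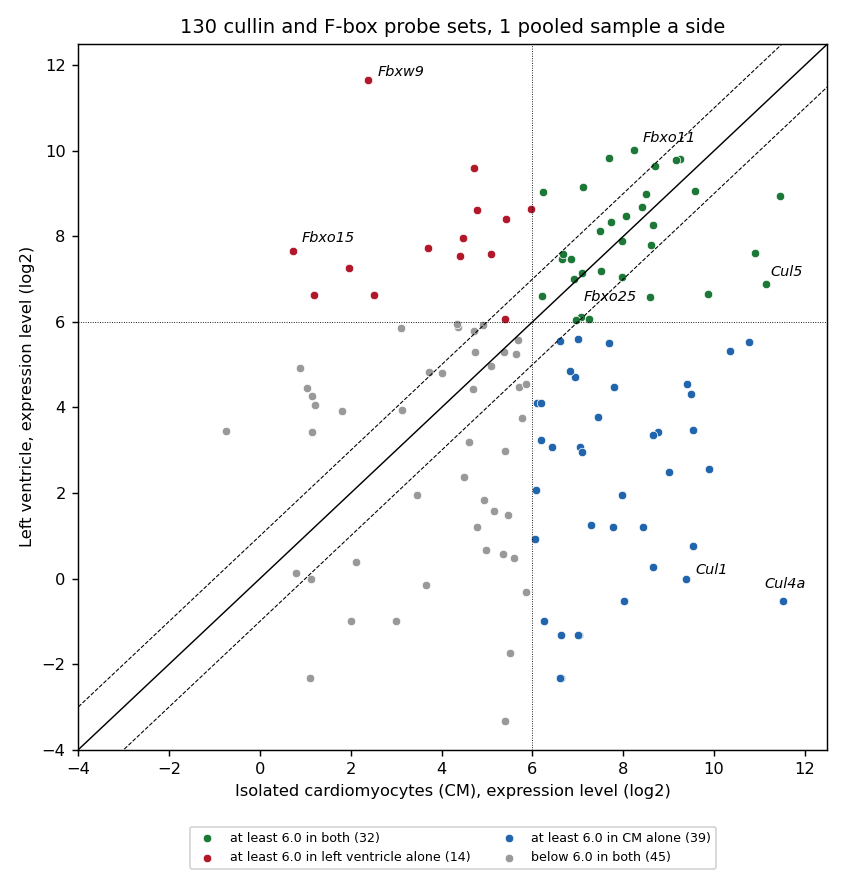
Expression level (log2) of each of the 130 probe sets in left ventricle (vertical axis) against isolated CM (horizontal axis), 1 pooled sample each. The solid line marks equal levels, the dashed lines 2-fold and the dotted lines 6.0, and the 39 probe sets read in CM alone reach much further below the diagonal than the 32 read in both.

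By gene, taking the mean of its probe sets as its level, 10 of the 71 genes (14.1 percent) were at least 2-fold higher in left ventricle and reached 6.0 in at least 1 sample of the pair, and 22 (31 percent) were lower by the same rule, together 45.1 percent. Of the 18 genes with a mean of at least 6.0 in both, 4 were higher, 2 were lower and 12 lay within 2-fold. The 4 higher genes were Fbxo9, Fbxl14, Fbxo11 and Fbxo33, and the 2 lower ones were Fbxw7 and Fbxw11. The other 6 higher genes were below 6.0 in CM, and the other 20 lower genes were below 6.0 in left ventricle. Scaling both samples to equal medians turned the split to 24 higher and 13 lower genes, and quantile normalization to 20 and 13, so that higher genes made up 31.3 percent of the calls as deposited, 64.9 percent with equal medians and 60.6 percent with quantile normalization. The fold rule divided Fbxo10, at a difference of 0.90, from Fbxo33 at 1.54, and Fbxw4 at -0.93 from Fbxw11 at -1.35.

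Of the 8 cullin scaffolds 4 were lower in left ventricle by this rule and 0 were higher, beside 31 percent lower and 14.1 percent higher of all genes. A lower call required a mean of 6.0 in CM, which 6 of the 8 cullins reached, against 38 of all 71 genes. Among the genes that reached it, 4 of the 6 cullins and 22 of all 38 were lower. Cul1, the scaffold of the SCF ligases, was read by 1 probe set at 0.00 in left ventricle and 9.38 in CM. Cul4a, a scaffold of the ligases that use Ddb1 as adaptor, stood at -0.51 and 11.52, also from 1 probe set. The difference of -12.03 rests on a linear value of 0.7 in left ventricle against 2929 in CM, and without a measure of the background it is read for its direction alone. Cul4b, its close relative, differed little, with 7.79 in left ventricle and 8.60 in CM by one probe set and 5.29 and 5.38 by the other, although its mean difference turned from -0.45 to 1.01 with equal medians.

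Cul3, which binds receptors with a BTB domain, was lower in left ventricle by all 5 of its probe sets. Its mean was 4.73 in left ventricle and 9.0 in CM, and the differences ran from -6.58 to -2.22. The pair of Cul3 probe sets that reached 6.0 in both samples read 7.61 and 6.65 in left ventricle against 10.90 and 9.86 in CM, so that the lower level did not rest on weak probe sets alone. Cul5, the scaffold of SOCS-box ligases, had a mean of 3.47 in left ventricle and 8.33 in CM. Its 3 probe sets read 4.85, -1.32 and 6.89 in left ventricle and 6.83, 7.02 and 11.14 in CM, in the same order, and all were lower in left ventricle.

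Cul2, on which the von Hippel-Lindau ligase is built, was read in opposite directions. One probe set was at 4.27 in left ventricle against 1.15 in CM, the other at 1.20 and 8.44. Cul7, which pairs with the receptor Fbxw8, was at 7.47 in left ventricle against 6.66 in CM from 1 probe set. Cul9, which binds p53, had means of 2.95 and 3.08, below 6.0 in both samples, from probe sets that differed by -3.10 and 2.85. Of the 17 cullin probe sets, 5 reached 6.0 in both samples, 8 in CM alone, 4 in neither and 0 in left ventricle alone. The median cullin level was 3.21 in left ventricle and 7.66 in CM, with a median difference of -3.17, beside -0.98 over all 71 genes. Over all 71 genes the median levels were 4.44 and 6.10, in the same order, so the cullins started from a higher CM level.

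Muscle F-box genes were measured for 4 of the 6 on the list, and as deposited 2 of the 4 were lower in left ventricle and 2 lay within 2-fold, beside 31 percent lower among all genes. All 4 had a mean of at least 6.0 in CM, which a lower call requires, against 38 of all 71 genes. Fbxo25, a receptor for cardiac transcription factors, was at 7.0 in left ventricle against 6.92 in CM from 1 probe set. Fbxo32, which encodes Atrogin-1, a receptor induced in muscle atrophy, was read at 8.14 and 7.90 in left ventricle and at 7.49 and 7.98 in CM. It was the 1 gene with several probe sets of which all reached 6.0 in both samples, and its mean differed by 0.28, about the size of the SD of its probe sets (0.17 in left ventricle and 0.35 in CM, n = 2). This likeness held as deposited but depended on the scaling. Equal medians gave differences of 1.54 for Fbxo25 and 1.75 for Fbxo32, and quantile normalization 1.13 and 0.999, the latter just within 2-fold. Equal medians of the 32 probe sets well read in both, a scaling chosen after seeing the data, gave 0.21 and 0.41. Fbxo25 and the first of these Fbxo32 probe sets had their highest level of the 5 samples in left ventricle.

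Fbxo30, also called MUSA1, a muscle ligase held down by BMP signalling, and Fbxo21, a further F-box gene of muscle atrophy, were at least 2-fold lower in left ventricle by their means. The 4 Fbxo30 probe sets read 9.64, 2.49, 3.42 and 0.26 in left ventricle and 8.69, 9.01, 8.78 and 8.67 in CM. The CM values of Fbxo30 lay close together (SD 0.16 over probe sets), whereas those of left ventricle did not (SD 4.02), and one of the 4 was higher in left ventricle. Taking the highest probe set in each sample turned its difference from -4.83 to 0.63. Fbxo21 was lower by both its probe sets, at 4.49 and 1.96 in left ventricle and 5.70 and 7.98 in CM. These SDs describe the spread within 1 array and are not a replicate error.

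The study's cell-size screen named 11 genes that were measured here, all of which had been selected on their CM level, so that a level of at least 6.0 in CM is no finding for them. In left ventricle 8 of the 11 reached 6.0 by their mean, beside 24 of all 71 genes. The nearer base is the 38 genes with a mean of at least 6.0 in CM, of which 18 reached it in left ventricle. By the fold rule 3 of the 11 screen genes were higher, 3 were lower and 5 were neither, with a median difference of 0.08. Among all genes 14.1 percent were higher and 31 percent lower. Besides Fbxo25 and Fbxo32, the neither group held Fbxw5, Fbxw4 and Fbxo6. Fbxw5, which also serves Cul4-based ligases, was at 9.0 in left ventricle against 8.51 in CM, and Fbxw4, a gene of limb development, at 6.04 and 6.96, each from 1 probe set. Fbxo6, which binds N-glycans of misfolded glycoproteins, was read at 7.48 and 4.54 in left ventricle and at 6.85 and 5.85 in CM.

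Higher in left ventricle among the screen genes were Fbxl14, Fbxo9 and Fbxo33. Fbxl14, a receptor for the transcription factor Snail, was at 9.84 in left ventricle against 7.68 in CM from 1 probe set. Fbxo9, which acts on regulators of mTOR, was higher by both probe sets, at 9.79 and 8.62 in left ventricle and 9.17 and 4.77 in CM, and was the highest of the 5 samples there by both. Fbxo33, a receptor for the RNA-binding protein YB-1, was also higher by both, at 8.65 and 6.60 against 5.96 and 6.21. Fbxo9 and Fbxo33 were the only called higher genes with several probe sets that all differed in this direction. Their mean differences of 2.23 and 1.54 came mainly from 1 probe set each, the other differing by 0.61 and 0.39.

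Lower in left ventricle among the screen genes were Cul1, Fbxo30 and Fbxo45. Fbxo45, a receptor known from synapse formation, had probe sets in opposite directions, at 7.58 and 3.36 in left ventricle and 5.09 and 8.66 in CM. Its difference of -1.40 turned to 0.07 with equal medians of the samples.

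The plot of probe sets well read in both samples gives the levels least touched by the low end of left ventricle. At least 2-fold higher there were 4 of the 32. They were probe sets of Fbxo28 (9.03 in left ventricle, 6.23 in CM), Fbxl14, Fbxo41 (9.16 and 7.12) and Fbxo11, a receptor for Bcl6 (10.02 and 8.23). At least 2-fold lower were 6, namely both Cul3 probe sets, that of Cul5, and probe sets of Fbxw11 (8.95 and 11.44), Fbxo4 (6.58 and 8.59) and Fbxw2 (6.07 and 7.25). The 32 differences ran from -4.25 to 2.80, with a median size of 0.81. For Fbxo28, Fbxo41, Fbxo4, Fbxw11 and Fbxw2 another probe set of the same gene differed in the other direction. The rank correlation (Spearman's rho) of the 2 samples was 0.33 over these 32 probe sets, some of which share a gene, and 0.18 over all 130.

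**Figure D2:**
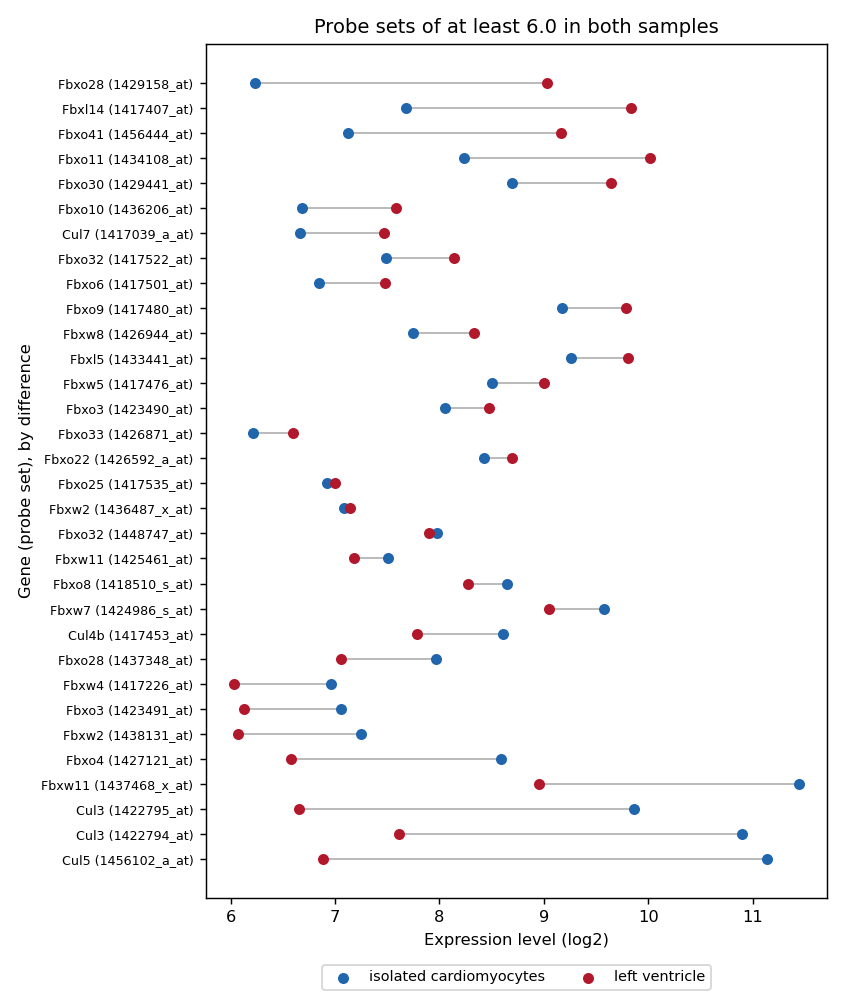
Expression levels (log2, horizontal axis) in left ventricle (red) and isolated CM (blue) for the 32 probe sets of at least 6.0 in both, ordered by their difference and named by gene and probe set. The Fbxo25 probe set and both Fbxo32 probe sets lie within 2-fold of equal levels, and the Cul3 and Cul5 probe sets at the foot show the widest gaps.

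Several other receptors lay within 2-fold on the deposited scale. Fbxl5, which senses iron and acts on an iron regulatory protein, was at 9.80 in left ventricle against 9.26 in CM, Fbxo8, which acts on the small GTPase Arf6, at 8.27 and 8.65, and Fbxo10, a receptor for Bcl2, at 7.59 and 6.68, each from 1 probe set. With equal medians Fbxl5 differed by 2.01 and Fbxo8 by 1.09, past 2-fold, and with quantile normalization by 1.41 and 0.21. Fbxo28 and Fbxo4 had close means, 6.39 and 6.88 for the former and 7.27 and 6.53 for the latter, but their probe sets did not agree. Fbxo4 was read at 7.96 and 6.58 in left ventricle and at 4.48 and 8.59 in CM.

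Among the 8 conserved WD40 receptors, 1 was higher, 3 were lower and 4 were neither, with a median difference of -1.14. This is near the 14.1 percent higher, 31 percent lower and median of -0.98 of all genes. Fbxw7, the receptor for cyclin E, Myc and Notch, was read at 9.05 and 4.54 in left ventricle and at 9.58 and 9.41 in CM, so both probe sets were lower but only one of them by more than 2-fold. Fbxw11, a receptor for phosphorylated beta-catenin and IkappaB, had a mean of 6.18 in left ventricle and 7.53 in CM, and its 5 differences ran from -5.01 to 4.88. Its difference of -1.35 turned to 0.11 with equal medians and to 0.06 with quantile normalization. Fbxw2 had 7 probe sets, the most of any gene, with a mean of 3.32 in left ventricle (SD 4.02 over probe sets) and 6.43 in CM (SD 1.19). Its differences ran from -8.94 to 2.98, and with the highest probe set of each sample its difference of -3.11 turned to 0.39.

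Fbxw9 had the highest single value of left ventricle, 11.66, by a probe set that stood at 2.38 in CM. Its other probe set read 5.60 in left ventricle and 7.01 in CM, so that the mean difference of 3.93 rests on 1 of 2 probe sets. Fbxw8, the receptor that partners Cul7, had a mean of 3.73 in left ventricle and 5.95 in CM, below 6.0 in both. Of its 4 probe sets the one of at least 6.0 in both samples read 8.33 and 7.74. Fbxw10 stood at 4.93 and 0.89 from 1 probe set, also below 6.0 in both samples.

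Among the measured Fbxw genes of the cluster that is expanded in rodents, 2 of 5 were higher in left ventricle and 0 were lower, against 14.1 and 31 percent of all genes. All 5 had means below 6.0 in CM, so that a lower call was not possible for them and a higher call required 6.0 in left ventricle. Fbxw19 was at 6.63 in left ventricle against 1.20 in CM, and Fbxw17 at 7.74 and 3.69, each from 1 probe set. Fbxw13 (3.42 and 1.14), Fbxw14 (0.57 and 0.18) and Fbxw16 (3.78 and 5.42) were below 6.0 in both samples by their means. The probe sets of Fbxw14 differed by -3.42 and 4.21 and those of Fbxw16 by -3.98 and 0.68. One of Fbxw16 read 6.07 in left ventricle. Genes of this cluster share much of their sequence, so binding of RNA from one gene to the probes of another cannot be told apart here.

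Genes known from germ cells, stem cells and early embryos were above 6.0 in left ventricle in 2 of 4 cases, against 24 of all 71 genes, and both were called higher, as were 14.1 percent of all genes. All 4 were below 6.0 in CM, so that a lower call was not possible and a higher call required 6.0 in left ventricle. Fbxo15, a marker of embryonic stem cells, was at 7.67 in left ventricle and 0.72 in CM, a level so low that the size of the gap is not read. Fbxo5, or Emi1, an inhibitor of the anaphase-promoting complex in mitosis, stood at 7.55 and 4.41. Fbxo43, or Emi2, its meiotic counterpart, stood at 4.46 and 1.03, and Fbxo24, known from testis, at -1.0 and 2.01, both below 6.0 on either side. Each was read by 1 probe set. Fbxo15 was one of 3 genes, with Fbxw19 and Fbxl7, that had a probe set of at least 6.0 in left ventricle and below 2 in CM.

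The reverse pattern was the more frequent. In all, 71 probe sets reached 6.0 in CM and 46 in left ventricle, and 13 and 34 lay below 2. The counts of the 2 patterns thus do not start from equal numbers. A level of at least 6.0 in CM and below 2 in left ventricle was found for 16 probe sets, and 6 of these stood at 8 or more in CM, among 30 such CM probe sets. Among the 6 were probe sets of Cul1, Cul2, Cul4a, Fbxo30 and Fbxw2. Of the 20 left ventricle probe sets of 8 or more, 0 were below 2 in CM, and 10 probe sets were at 8 or more in both samples.

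Among the 17 Fbxl receptors 2 were higher and 6 lower in left ventricle, near the 14.1 and 31 percent of all genes, with a median difference of -1.35. Fbxl21, a receptor for the circadian cryptochromes, was higher, at 6.62 in left ventricle and 2.51 in CM. Fbxl19, a receptor with a zinc finger that binds unmethylated CpG, was lower, at -1.32 and 7.0, as was Fbxl12, known for the cell cycle inhibitor p21 as substrate, at 3.78 and 7.45, each from 1 probe set. Fbxl17, which clears faulty BTB dimers, was lower by both probe sets, with means of 4.30 and 7.37, and Fbxl20, known from synapses, by all 4, with means of 3.64 and 7.05. Fbxl6 stood at 4.10 and 6.10.

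The Fbxl genes named next were below 6.0 on either side by their means. Fbxl7, which acts on Aurora A, was the gene whose probe sets disagreed most, with differences from -7.25 to 5.31. Fbxl2, a lipid-anchored receptor, stood at 3.92 and 1.82, and Fbxl18, which acts on Fbxl7, at 5.89 and 4.36. Fbxl4, a mitochondrial F-box protein, stood at 3.19 and 4.61, and Fbxl15, which acts on the ligase Smurf1, at 1.96 and 3.46. Fbxl13, Fbxl16 and Fbxl8 stood at 4.96, 5.79 and 0.00 in left ventricle and at 5.08, 4.71 and 1.13 in CM, in the same order.

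The FBA-domain receptors, most of which bind glycoproteins, gave 0 calls among 5 genes, beside calls for 45.1 percent of all genes. Fbxo6 alone reached 6.0 by its mean, so that no call was possible for the others. By fold alone Fbxo17 (2.02-fold), Fbxo27 (6.57-fold) and Fbxo44 (15.3-fold) differed by at least 2-fold. Fbxo2, known from neurons, was at 4.80 in left ventricle against 4.01 in CM, and Fbxo17 at 5.92 and 4.91. Fbxo27 (0.36 and 3.08) and Fbxo44 (0.94 and 4.87) were lower in left ventricle by both probe sets each but below 6.0 in both samples.

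Of the other Fbxo genes, the lower ones included Fbxo18, now named Fbh1, a DNA helicase, at -1.32 in left ventricle and 6.62 in CM, and Fbxo46 at 0.93 and 6.06. Fbxo7, linked to mitophagy, stood at 3.25 and 6.20 and Fbxo34 at 4.10 and 6.20, all from 1 probe set each. Fbxo22, a receptor for the histone demethylase Kdm4a, had a mean of 3.88 and 6.81. One of its 3 probe sets was slightly higher in left ventricle (8.69 and 8.43), whereas the others read 2.56 and 0.38 in left ventricle against 9.89 and 2.10 in CM. Fbxo3, which acts on Fbxl2, had a mean of 5.19 and 6.56 over 5 probe sets with differences from -3.57 to 0.57. Fbxo38 at 0.49 and 5.60 and Fbxo36 at 1.81 and 5.49 differed widely but were below 6.0 in both by their means. The probe sets of Fbxo36 went in opposite directions, at 5.94 and -2.32 in left ventricle and 4.34 and 6.64 in CM. Fbxo31, a receptor for cyclin D1, differed little at 5.58 and 5.68. Fbxo16 stood at 4.44 and 4.70, Fbxo41 had a mean of 4.08 and 5.06, and Fbxo42, a receptor for p53, one of 2.98 and 4.12.

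By family, 5 Fbxo genes were higher and 9 lower, with a median difference of -0.48 over 33 genes. Of the 13 Fbxw genes 3 were higher and 3 lower, with a median of 0.39. Among all genes 14.1 percent were higher and 31 percent lower, and the Fbxo genes lay near these shares. These medians describe the genes of 1 pair of samples, and the families were not compared by a test.

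**Figure D3:**
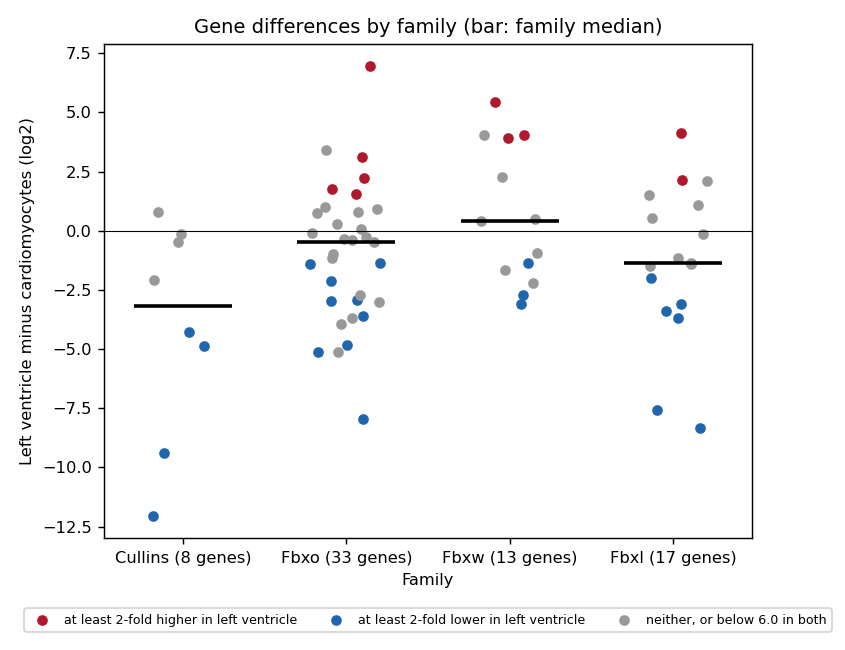
Difference between left ventricle and isolated CM (log2, vertical axis) for each of the 71 genes by family, with colour for genes that differ by at least 2-fold and reach 6.0 on either side, and a bar for the family median. All 8 cullins lie at 0.81 or below, with Cul4a at -12.03, while the Fbxw genes spread to both sides of 0.

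The genes of the study's siRNA library lay lower in left ventricle than those outside it, but the library was drawn up from the CM levels of these samples, so this is no independent evidence of a direction. Of the 17 genes in its first group, 12 were lower and 1 was higher in left ventricle, with a median difference of -2.69, beside 31 percent lower and 14.1 percent higher among all genes. Of the 18 in its second group, 6 were lower and 3 higher, with a median of -0.36. The 35 genes outside the library gave 4 lower and 6 higher, with a median of -0.26, and 1 of their 48 probe sets reached 6.0 in both samples.

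Probe sets of the same gene disagreed more in left ventricle than in CM. Of the 32 genes with several probe sets, the SD over probe sets was larger in left ventricle for 24, with a median SD of 3.0 in left ventricle and 1.71 in CM. All probe sets differed in one direction for 12 of these genes, 10 toward CM and 2 toward left ventricle, and in mixed directions for 20. Within a gene the differences spanned a median of 5.79 on the log2 scale. Of the called genes, 7 of the 10 higher and 9 of the 22 lower ones rested on 1 probe set, 2 higher and 7 lower ones had several probe sets all in the called direction, and the remaining 1 higher and 6 lower had mixed probe sets.

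On the deposited scale the tissue level did not usually fall between those of isolated cells. These positions were not counted under another scaling. Over the 130 probe sets left ventricle lay between CM and non-failing cardiac fibroblasts for 33 (25.4 percent), below both for 72 and above both for 25. Over the 32 probe sets well read in left ventricle and CM, it lay between for 12, below both for 4 and above both for 16. These counts are not independent of the choice, since a level of at least 6.0 in left ventricle was asked. Genes with a probe set for which left ventricle was the highest of all 5 samples included Fbxo25, Fbxo32, Fbxo9, Fbxl14, Fbxl5, Fbxo10, Fbxo11, Fbxw5 and Fbxo15.

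Within 2-fold of each other were 32 of the 130 probe sets of left ventricle and CM, against 57 (43.8 percent) of CM and lung fibroblasts and 65 (50 percent) of the 2 cardiac fibroblast samples, whose ranges are narrower. A ratio within 10 percent of a power of 10 other than 1, was found for 8 probe sets of left ventricle and CM and for 1 to 8 in the other pairs of samples.

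Likeness of left ventricle and CM depended on the number in the probe set's name. This was seen after the values had been examined and was not tested. With the 130 probe sets in the order of that number, in 5 blocks of 26, the median size of the difference was 0.93, 2.59, 3.29, 3.21 and 5.15 from the first block to the last. Within 2-fold were 14, 7, 6, 5 and 0 probe sets, and 14, 8, 6, 2 and 2 reached 6.0 in both. The rank correlation of left ventricle and CM was 0.72, 0.16, 0.23, -0.02 and -0.01 in these blocks, while that of CM and lung fibroblasts was 0.63, 0.79, 0.74, 0.70 and 0.81. The falling likeness was thus seen for left ventricle and not for CM against lung fibroblasts. In the last block the median level was 3.03 in left ventricle and 7.03 in CM, and 22 of the 26 probe sets were at least 2-fold lower in left ventricle.

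The order touches the genes named above. Of the 12 probe sets with the lowest numbers, for 11 genes, 10 were within 2-fold, and the rank correlation was 0.87. They include those of Fbxo25, Fbxw4, Fbxw5, Cul4b, Cul7 and Fbxo31 and one each of Fbxo6, Fbxo9 and Fbxo32. Fbxl14, at 2.16, and Fbxl15, at -1.49, were the exceptions. The probe sets of Cul1 and Cul4a stood in the fourth and the fifth block. Both Cul3 probe sets well read in both samples stood in the first, at -3.29 and -3.21, where the median difference was -0.10. The other cullin probe sets of the first block differed by 0.81 (Cul7), -0.82 and -0.09 (Cul4b) and 3.12 (Cul2). Whether the low cullin levels of left ventricle go with the cullins or with the numbers of their probe sets was not tested.

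**Figure D4:**
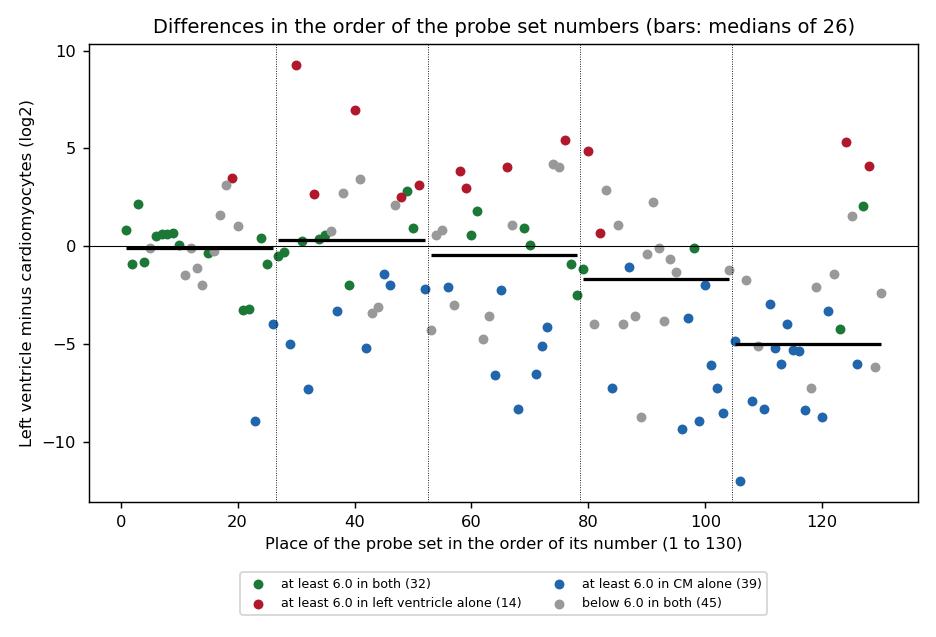
Difference between left ventricle and isolated CM (log2, vertical axis) for the 130 probe sets in the order of their number (horizontal axis), coloured by the sample in which they reach 6.0, with a bar for the median of each block of 26. In the last block no point (0 of 26) lies within 2-fold of equal levels, against 14 in the first, and the medians pass from -0.10 in the first block to -4.99 in the last.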

How the data were processed

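RNA of 5 pooled mouse samples was hybridised to Affymetrix expression arrays. The authors deposited 2 sheets with log2 expression levels for 130 probe sets and a whole-array table of linear intensity with 45101 rows. Raising 2 to the log2 value gave the deposited intensity within 1 percent or 0.01 units for 129 of the 130 shared probe sets and not for one of Fbxl20. A further 44971 rows were not used, since 1 intensity, 47.24 in CM and 47.31 in left ventricle, filled 7703 and 8061 of them. Their highest intensity was 318.37 in both samples, whereas left ventricle reached 3239.2 among the 130 probe sets. In these unused rows 57.1 percent of intensities lay within 10 percent between the 2 samples, with a rank correlation of 0.10. The cause was not tested. The sources used here do not give the background correction, the summary of probes or the normalization, the records name a labelling kind and a program made for other arrays, and signal over background was not given. The 4 columns of the authors' log2 differences between samples were not used.

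Levels of genes were means of the log2 values of their probe sets, and 4 probe sets carried several symbols. In the RefSeq table of GRCm38.p6, 70 of the 71 symbols were found and 1 as an older symbol. Genes were called by a rule of at least 2-fold with at least 6.0 in 1 sample, without a test. Named were all cullins, the muscle, WD40, germline, FBA and screen lists, the 10 largest calls each way, genes whose several probe sets all reached 6.0 in both samples, and the 10 smallest differences at 6.0 in both; the others were added by family after their values were seen. The members and lists were chosen with earlier results of these data known. For 1 gene no value is printed here, and it is counted with the others.

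Alternatives were the median or highest probe set, the whole-array table as source, no level rule or 6.5, 1.5-fold, equal medians, quantile normalization, dropping the probe sets with _s_at or _x_at names, and probe sets in 1 direction. Calculations used Python 3.11.15, pandas 2.3.3, NumPy 2.4.6, SciPy 1.17.1 and matplotlib 3.10.9, and the functions were tested on simulated data.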

Additional observations from a re-analysis of the deposited data

How the results depend on the processing

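No paired analysis was possible because there was 1 pool per condition. The split of 10 higher and 22 lower genes held within 1.5 times with the median or highest probe set, the whole-array table, a level of 6.5, 1.5-fold, without _s_at or _x_at probe sets and with probe sets in 1 direction. Without the level rule it was 17 and 35. Equal medians, which moved left ventricle by 1.47 against CM, gave 24 and 13, and quantile normalization 20 and 13. Equal medians of the 32 probe sets well read in both, a shift of 0.13 chosen after seeing the data, gave 11 and 21. Among those 32, the 4 that were 2-fold higher became 11 at 1.5-fold, and the 6 lower became 10. For the other scalings 6.0 was asked anew of the rescaled values, so the probe sets were not all the same ones. Equal medians then gave 17 higher and 6 lower among 32, and quantile normalization 14 and 8 among 33. Of the 46 named genes, 8 changed sign with equal medians, 8 with quantile normalization, 6 with the highest and 1 with the median probe set, and 1 with equal medians of the 32. Without a call these were Cul4b, Cul9, Fbxo6, Fbxo8, Fbxo28 and Fbxw4 with equal medians and with quantile normalization, Fbxo27 with the latter alone, Fbxo4, Fbxo6, Fbxo28 and Fbxw8 with the highest, Fbxo28 with the median probe set, and Cul9 with equal medians of the 32. Called differences that turned were those of Fbxo30, to 0.63, and Fbxw2, to 0.39, with the highest probe set, of Fbxo45, to 0.066, and Fbxw11, to 0.11, with equal medians, and of Fbxw11, to 0.055, with quantile normalization. The cause was not tested.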
